A study of Mus musculus with 4 samples.

Results

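The chromatin and transcription factor genes Hmga2, Hmga1, Sox11 and Sox4 were followed across 4 RNA-seq libraries of mouse primary keratinocytes, the main cells of the outer skin. They were selected by gene symbol, each symbol matched 1 row in every table, and they are 4 of 13102 deposited genes. HMGA proteins bind AT-rich DNA in the minor groove and bend it, so that other factors can assemble on enhancers and promoters. They are abundant in embryonic and proliferating cells and scarce in most adult tissues. The SOXC factors SOX4 and SOX11 bind DNA through a high mobility group box, act in embryonic progenitors of many organs, and are known in mouse skin for their expression in embryonic and wounded epidermis.

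All cells came from neonatal C57BL/6 mice and were grown for 48 h in 154CF medium with the HKGS supplement. Cells of Il17rc knockout (KO) mice, of Il17rd KO mice and of wild-type (WT) mice received 100 ng/mL of the inflammatory skin cytokine IL-17A for 8 h, and a further WT group was left untreated. Il17rc and Il17rd encode chains of the IL-17 receptor family, and the study asks which of them keratinocytes need to answer IL-17A. Each group has 1 library, the sources used here do not give the number of mice behind it, and no untreated KO library was analysed here, so genotype and response to the cytokine cannot be told apart. The members were picked for their scaled counts across these 4 groups. Their values are therefore a description, without a test or a p-value, and no difference has a replicate check.

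Library totals lay between 19711866 and 19904695 counts. Levels are CPM, counts relative to library sizes scaled with TMM factors. A ratio is followed by its exact 95% counting interval, which covers counting error only, and a gene is called higher or lower where the ratio is at least 2-fold and its interval excludes 1. This size rule was applied to 12934 genes averaging 1 CPM or more, and the 4 members were among them. The labels were checked on the targeted genes. Il17rd had 150 counts in Il17rc KO, 5 in Il17rd KO, 265 in IL-17A WT and 252 in untreated WT, and Il17rc had 439, 1718, 1152 and 2729 in that order. Il17rc transcript was thus still counted in its own knockout. All 12 keratinocyte markers were measured, and they summed to 42977, 47617, 42887 and 58473 CPM in the same order. The keratin gene Krt14 stood at 10833, 11428, 9988 and 11878 CPM. In IL-17A WT against untreated WT, 1 of the 12 was called higher (Epcam) and 3 lower (Col17a1, Perp and Krt15). Over all genes 8.97% were called higher and 10.7% lower. The Y-linked Ddx3y had 749, 2, 233 and 654 counts, so the mix of male and female cells differed between the libraries and cannot be told apart from the groups. In bulk RNA, fewer cells of a type and less RNA per cell cannot be told apart either.

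In the annotation GENCODE M21 (GRCm38), Hmga2 lies on chromosome 10 (120361275 to 120476469, minus strand), Hmga1 on chromosome 17 (27556497 to 27563674, plus strand), Sox11 on chromosome 12 (27334264 to 27342574, minus strand) and Sox4 on chromosome 13 (28948919 to 28953713, minus strand). The SOXC genes have 1 exon each, and the exons of Hmga2 and Hmga1 merge into 6 and 5 blocks. Hmga1 counts are uncertain, since reads from much of its transcript can align elsewhere, so its levels may be too low or too high. On the strand opposite to Sox4, the noncoding Gm26735 shares 54.6% of the Sox4 transcript. The sources used here do not give the strand setting of the counting, so reads of the pair cannot be told apart. Hmga2 has 2 antisense genes, 1700006J14Rik and 9230105E05Rik, within its span.

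Hmga2 transcripts are a classic target of the let-7 microRNAs, which silence the gene in differentiated cells, and LIN28 proteins block let-7 maturation. The let-7 sequences and the matches in the members are shown because they are a sequence feature that the choice of genes did not use. RefSeq (GRCm38.p6) lists 11 entries of mature let-7 and miR-98 guide strands, and all of them share the seed, bases 2 to 8, given in capitals.
mmu-let-7a-5p: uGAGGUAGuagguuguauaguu
mmu-let-7e-5p: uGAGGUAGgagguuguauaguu
mmu-miR-98-5p: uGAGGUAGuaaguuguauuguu
The DNA match to this seed, CTACCTC, was searched in the longest annotated 3′ UTR of each protein-coding gene. Capitals mark it in the 4 sites of Hmga2 and the 1 site of Hmga1, written 5′ to 3′ on the transcript strand.
Hmga2 site 1: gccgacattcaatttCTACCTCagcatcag
Hmga2 site 2: ccccactcctcaataCTACCTCtgaatgct
Hmga2 site 3: ctgatttgcaaggaaCTACCTCcacacttc
Hmga2 site 4: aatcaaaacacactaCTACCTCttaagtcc
Hmga1 site 1: tcctctgttcacaaaCTACCTCtggacggt
The Hmga2 matches lie at chr10:120364225-120364231, chr10:120362988-120362994, chr10:120362550-120362556 and chr10:120361692-120361698, and the Hmga1 match at chr17:27563292-27563298. Of 21039 genes with a 3′ UTR, 1898 (9.02%) held at least 1 match and 12 held 4 or more. Among those 12 were Hmga2, Lin28b and Igf2bp1, each with 4. Their 3′ UTRs have 3014, 4445 and 6337 bases, against a median of 960 over all genes searched, and the shares are not adjusted for length. The letters CTACCTC were not in the 3′ UTR of Sox11 (6957 bases) or Sox4 (2780 bases). A match is a description of the sequence, and let-7 itself was not analysed here.

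Promoter windows of Hmga2 and Sox11 are shown because these members had the largest ratios of IL-17A WT to untreated WT. The windows run from 250 bases before to 50 after the RefSeq start (GRCm38.p6). They were searched on both strands for TGANTCA (AP-1), GGG and CC with any 5 bases between them (NF-kB) and ACAAAG or ATTGTT (SOX), and capitals mark the matches.
Hmga2, chr10:120476420-120476719, minus strand: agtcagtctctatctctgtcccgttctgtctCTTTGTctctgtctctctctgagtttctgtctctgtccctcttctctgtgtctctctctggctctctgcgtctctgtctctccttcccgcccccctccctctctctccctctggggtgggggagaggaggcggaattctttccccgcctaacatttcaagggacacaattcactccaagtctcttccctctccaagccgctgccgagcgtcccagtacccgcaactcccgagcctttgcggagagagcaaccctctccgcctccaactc
Sox11, chr12:27342669-27342968, minus strand: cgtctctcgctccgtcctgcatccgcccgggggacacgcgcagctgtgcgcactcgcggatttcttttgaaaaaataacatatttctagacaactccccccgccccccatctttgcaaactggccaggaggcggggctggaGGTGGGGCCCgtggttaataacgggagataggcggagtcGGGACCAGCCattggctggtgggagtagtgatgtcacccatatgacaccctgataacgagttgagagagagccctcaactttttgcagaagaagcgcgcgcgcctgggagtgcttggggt
The Hmga2 window held 1 SOX match and the Sox11 window 2 NF-kB matches. The Sox4 window held none of the 3 motifs, and the 2 overlapping Hmga1 windows held 6 and 5 NF-kB matches, some of which overlap each other. Of 32851 promoter windows of this length, 7.81% held the AP-1 letters, 50.8% the NF-kB letters and 27.0% the SOX letters. No member had an AP-1 match in these windows.

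Hmga2 was far above the other libraries in IL-17A WT. It had 428 counts in Il17rc KO, 633 in Il17rd KO, 8181 in IL-17A WT and 251 in untreated WT. As levels these are 21.3, 30.8, 418 and 13.1 CPM. The IL-17A WT library alone was high, both knockouts lay more than 10-fold below it, and no counting intervals of the 4 libraries overlapped. Per transcript length, Hmga2 stood at 61.6 FPKM in IL-17A WT, above 93.5% of all deposited genes, and at 1.93 FPKM in untreated WT, above 24.0% of them.

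Hmga1 followed another order. It had 1090 counts in Il17rc KO, 602 in Il17rd KO, 792 in IL-17A WT and 366 in untreated WT, which are 54.4, 29.3, 40.5 and 19.1 CPM. The Il17rc KO library was highest here, and each of the 3 IL-17A libraries was above untreated WT. The gene that overlaps the 3′ end of Hmga1 on the other strand, AI413582, had 241, 225, 288 and 293 counts.

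Sox11 was high in IL-17A WT, intermediate in Il17rd KO and lowest in Il17rc KO. Its counts were 65 in Il17rc KO, 374 in Il17rd KO, 733 in IL-17A WT and 165 in untreated WT, or 3.24, 18.2, 37.5 and 8.61 CPM. The Il17rc KO library thus lay below the untreated one, while the Il17rd KO library lay between untreated WT and IL-17A WT. Sox4 varied least. It had 1334 counts in Il17rc KO, 1724 in Il17rd KO, 1987 in IL-17A WT and 2049 in untreated WT, or 66.5, 83.9, 102 and 107 CPM. IL-17A WT and untreated WT did not differ in Sox4 beyond counting error, and both knockouts were lower.

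**Figure D1:**
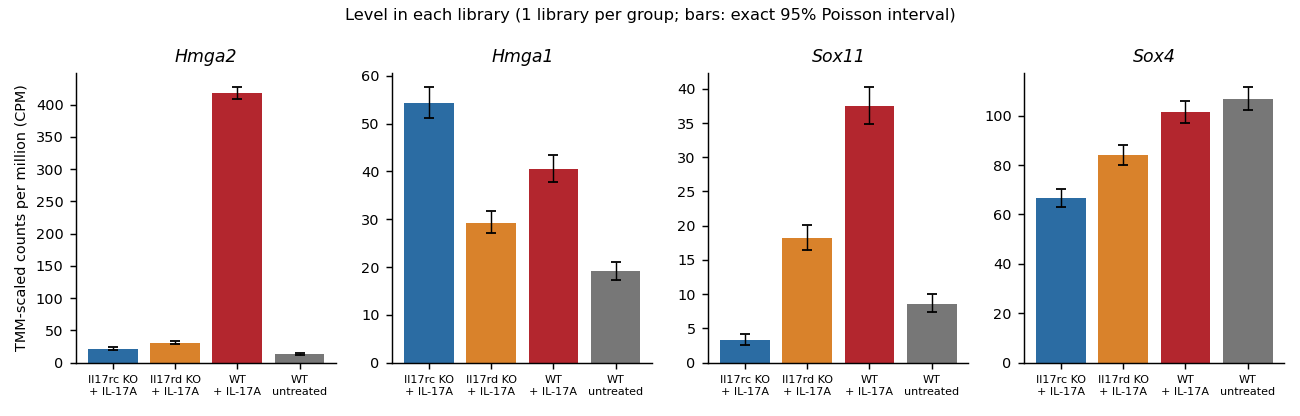
Levels of the 4 genes in TMM-scaled CPM on linear axes from 0, 1 bar per library, with exact 95% Poisson intervals. Hmga2 reached 418 CPM in IL-17A WT against 13.1 CPM in untreated WT, Hmga1 was highest in Il17rc KO at 54.4 CPM, Sox11 was lowest there at 3.24 CPM, and Sox4 stayed between 66.5 and 107 CPM.

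Levels of different genes can be set side by side only per length, on the deposited FPKM scale. The ratio of Hmga2 to Hmga1 was 0.115 in Il17rc KO, 0.309 in Il17rd KO, 3.04 in IL-17A WT and 0.202 in untreated WT. On these values Hmga2 was the higher HMGA transcript in IL-17A WT, and Hmga1 in the other 3 libraries, but the uncertain assignment of Hmga1 reads limits this order. Sox4 exceeded Sox11 in every library, by 35.6-fold in Il17rc KO, 7.99-fold in Il17rd KO, 4.70-fold in IL-17A WT and 21.5-fold in untreated WT. Within each pair the balance therefore lay furthest toward Hmga2 and Sox11 in IL-17A WT.

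WT cells with IL-17A were compared with untreated WT cells to describe the response to the cytokine. Of the 4 members, 3 were called higher and 0 lower, where 8.97% of all genes were called higher and 10.7% lower. These counts were among the values that chose the members. Hmga2 was 31.9-fold higher (28.2 to 36.3), and 15 of the 12934 genes had a larger log2 ratio. Sox11 was 4.35-fold higher (3.67 to 5.18), and 1.54% of genes lay at least as far up. Hmga1 was 2.12-fold higher (1.87 to 2.41), just past the size called. Sox4 was 1.05-fold lower (0.989 to 1.12), an interval that contains 1.

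The knockouts were then set against IL-17A WT to describe how cells with the same cytokine differed without each receptor chain. In Il17rc KO, 2 of the 4 members were called lower and 0 higher, where 4.84% of genes were called lower and 6.22% higher. Hmga2 was 19.6-fold lower (17.8 to 21.6) and Sox11 11.6-fold lower (8.96 to 15.1), and 7 genes lay below Hmga2 in log2 ratio. Sox4 was 1.53-fold lower (1.42 to 1.64) and Hmga1 1.34-fold higher (1.22 to 1.47), and both were under the size called.

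In Il17rd KO, the same 2 members were called lower and 0 higher, where 3.73% of genes were called lower and 6.27% higher. Hmga2 was 13.6-fold lower (12.5 to 14.7). Sox11 was 2.06-fold lower (1.81 to 2.34), at the edge of the size called, and with library totals in place of TMM its ratio of 0.515 was not called. Hmga1 was 1.38-fold lower (1.24 to 1.54) and Sox4 1.21-fold lower (1.13 to 1.29). Both knockout comparisons share the IL-17A WT library, which the comparison with untreated WT uses as well, so a high or low value of that library enters all of them.

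**Figure D2:**
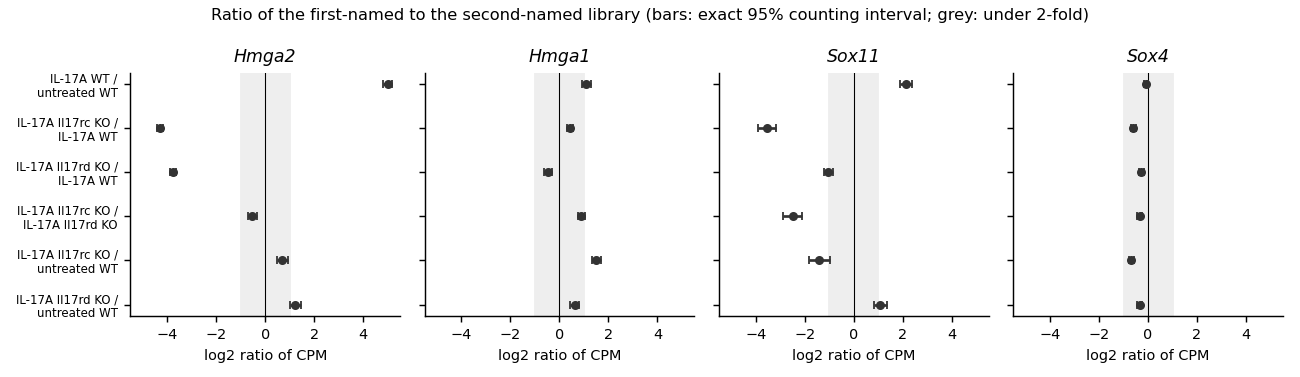
Log2 ratios of CPM for the 6 comparisons, the first-named library over the second, with exact 95% counting intervals and the zone under 2-fold in grey. Hmga2 lies far outside the grey zone in the comparisons that involve IL-17A WT, and Sox4 stays inside it in each of the 6.

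The knockouts were also set against each other. Of the members, 1 was called lower in Il17rc KO than in Il17rd KO and 0 higher, where 2.75% of genes were called lower and 1.49% higher. That member was Sox11, 5.62-fold lower (4.31 to 7.43), with 38 genes further down. Hmga2 was 1.44-fold lower (1.28 to 1.64), Sox4 1.26-fold lower (1.17 to 1.36) and Hmga1 1.85-fold higher (1.68 to 2.05). The HMGA pair thus lay on opposite sides of 1.

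Against untreated WT, the Il17rc KO library had 1 member called higher and 1 lower, where 7.27% of genes were called higher and 7.00% lower. Hmga1 was 2.85-fold higher (2.53 to 3.21) and Sox11 2.66-fold lower (1.98 to 3.60). Hmga2 was 1.63-fold higher (1.39 to 1.91) and Sox4 had a ratio of 0.622 (0.580 to 0.667), neither called. In Il17rd KO 2 members were called higher and 0 lower than in untreated WT, where 5.36% of genes were called higher and 3.35% lower. Hmga2 was 2.35-fold higher (2.03 to 2.74) and Sox11 2.12-fold higher (1.76 to 2.56). Hmga1 was 1.54-fold higher (1.35 to 1.75) and Sox4 1.27-fold lower (1.19 to 1.36).

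**Figure D3:**
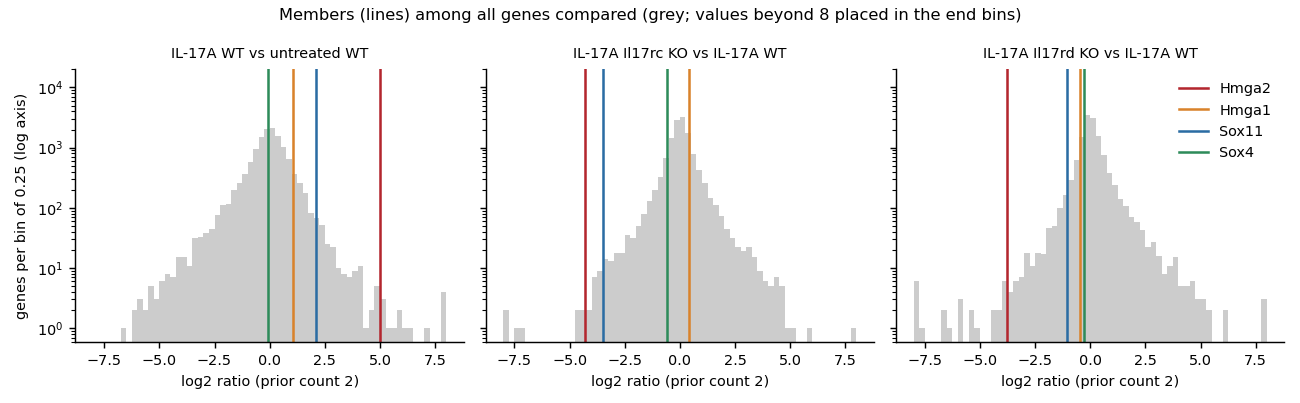
Log2 ratios of all 12934 genes compared (grey bars, log count axis, bins of 0.25) with the 4 members as lines, for IL-17A WT against untreated WT and for each knockout against IL-17A WT. Hmga2 sits in the far tail of each panel, Sox11 in the lower tail of the Il17rc KO panel, and Sox4 and Hmga1 under 2-fold in both knockout panels.

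Genes with the profile most like each member were sought among 9983 named genes averaging 5 CPM or more. The measure was the Euclidean distance between log2 CPM profiles over the 4 libraries, each centred on its own mean. The 5 genes nearest to Hmga2 were Csf3, Il1a, Mal, Krt8 and Cxcl1, at distances of 0.176 to 0.763. Csf3 is the granulocyte colony-stimulating factor gene, Il1a and Cxcl1 encode a cytokine and a neutrophil chemokine, and Krt8 a keratin of simple epithelia. Csf3 had 31 counts in Il17rc KO, 53 in Il17rd KO, 610 in IL-17A WT and 17 in untreated WT, and Il1a had 275, 501, 6135 and 246 in that order. Krt8 has a processed pseudogene that matches it at 98.6% identity.

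The genes nearest to Hmga1 were Pole, Tubb3, Dck, Rbmx2 and Kif24, at 0.141 to 0.181. Pole encodes the catalytic subunit of DNA polymerase epsilon and Dck the deoxycytidine kinase of nucleotide salvage. Pole had 1362 counts in Il17rc KO, 805 in Il17rd KO, 1075 in IL-17A WT and 441 in untreated WT. Nearest to Sox11 were the complement gene C3, Cbr2, Col5a3, Ankk1 and the ribonuclease gene Zc3h12a, at 0.349 to 0.849. C3 had 130 counts in Il17rc KO, 765 in Il17rd KO, 1706 in IL-17A WT and 445 in untreated WT, so it too was lowest in Il17rc KO. Nearest to Sox4, at 0.049 to 0.077, were Psme1, a proteasome activator gene, Cd9, a tetraspanin gene, Flrt1, Plcg1 and Acads. The members were further from each other, from 1.55 between Hmga1 and Sox4 to 3.73 between Hmga2 and Sox4.

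**Figure D4:**
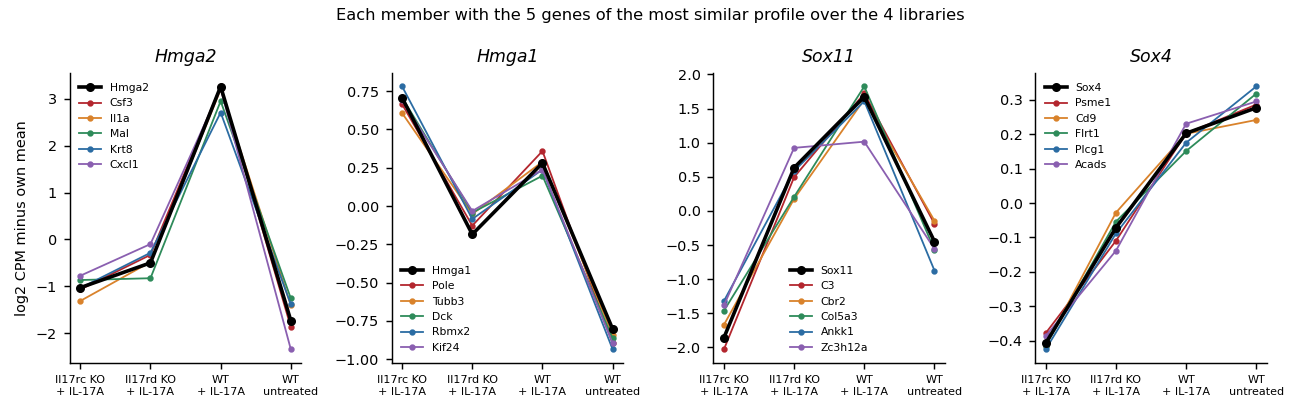
Log2 CPM of each member (black) and of the 5 genes nearest in profile (colours), each minus its own mean over the 4 libraries; lines only join the points of a gene. Hmga2 runs with Csf3, Il1a, Mal, Krt8 and Cxcl1, Hmga1 with Pole and Dck, Sox11 with C3, and the Sox4 panel spans less than the others.

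Over all genes, 8.97% were called higher and 10.7% lower in IL-17A WT against untreated WT. In Il17rc KO against IL-17A WT these shares were 6.22% and 4.84%, and in Il17rd KO 6.27% and 3.73%. They and the all-gene medians in this paragraph apply to each list that follows. The let-7 axis was described with 16 measured genes of 19 listed. In IL-17A WT against untreated WT, 1 was called higher and 1 lower, and the median log2 ratio was 0.13, against 0.0041 over all genes. Those were Mycn, at 38 against 14 counts, and the zinc finger gene Plagl1, 2.52-fold lower (2.29 to 2.78). Lin28b, which blocks let-7 maturation, was not called in any of the 3 comparisons with or against IL-17A WT. In Il17rc KO it was 1.98-fold lower (1.66 to 2.38) than in IL-17A WT, just under the size called. It had 187 counts in Il17rc KO, 304 in Il17rd KO, 362 in IL-17A WT and 285 in untreated WT. The oncofetal RNA-binding protein genes Igf2bp1, Igf2bp2 and Igf2bp3 were not called in them either. Igf2bp2, in other cells a target of HMGA2, had 3519, 4063, 4086 and 3676 counts in the same order. In Il17rc KO against IL-17A WT, 1 gene of the list was higher and 1 lower, with a median of -0.08 against 0.042 over all genes, namely Plagl1 and Igf2. In Il17rd KO, 1 was higher and 1 lower, with a median of -0.05 against 0.011, namely Plagl1 and Mycn.

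Of 10 listed partners and targets of HMGA proteins 8 were measured. The median in IL-17A WT against untreated WT was 0.26, against 0.0041 over all genes. Of the 8, 2 were called higher and 0 lower, where 8.97% and 10.7% of all genes were. They were the cyclin gene Ccna2, 3.22-fold higher, and Ercc1, a DNA repair endonuclease gene, 3.37-fold higher (3.04 to 3.74). Ccna2 had 4046 counts in Il17rc KO, 2046 in Il17rd KO, 1666 in IL-17A WT and 507 in untreated WT, which is not the order of Hmga2. Ercc1 had 814, 661, 1596 and 464 counts and was highest in IL-17A WT, as Hmga2 was. In Il17rc KO against IL-17A WT, 1 of the 8 was called higher (Ccna2) and 2 lower (Cdkn2a and Ercc1), with a median of -0.05. In Il17rd KO 0 were higher and 1 lower (Ercc1), with a median of -0.03.

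The list of the third SOXC gene and of reported SOX4 or SOX11 targets had 6 measured genes of 7. In IL-17A WT 2 were called higher and 2 lower than in untreated WT, with a median of 0.52. Over all genes the shares were 8.97% and 10.7% and the median 0.0041. The actin-bundling gene Fscn1, 2.17-fold higher (2.10 to 2.24), and the tubulin gene Tubb3, 2.19-fold higher, stood against Sox12, 2.18-fold lower (1.78 to 2.69), and Map2, 2.70-fold lower (1.97 to 3.74). Fscn1 had 6470 counts in Il17rc KO, 6215 in Il17rd KO, 12362 in IL-17A WT and 5590 in untreated WT. It was high in IL-17A WT alone, and the knockouts were near each other. In Il17rc KO against IL-17A WT, 1 of the 6 was called higher (Map2) and 0 lower, with a median of 0.42. In Il17rd KO 1 was higher (Map2) and 1 lower (Fscn1), with a median of -0.20. Sox12 had 268, 262, 137 and 293 counts in the order of the libraries above, the opposite of Sox11 between IL-17A WT and untreated WT.

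Of 16 further SOX genes 8 were measured. In IL-17A WT 1 was called higher and 1 lower than in untreated WT, with a median of -0.23. These counts of 8 lie near the shares over all genes, 8.97% and 10.7%. Sox15 was 5.81-fold higher (4.39 to 7.81) and Sox21 2.65-fold lower (2.32 to 3.03). Against IL-17A WT, Il17rc KO had 1 higher (Sox21) and 0 lower, with a median of 0.41, and Il17rd KO had 1 higher (Sox21) and 1 lower (Sox15), with a median of -0.14. Per length, Sox9, a factor of hair follicle progenitors, was the most abundant SOX transcript in each library, at 96.5 FPKM in Il17rc KO, 57.0 in Il17rd KO, 64.7 in IL-17A WT and 87.2 in untreated WT. Sox4 stood at 13.8, 17.5, 21.1 and 22.2 FPKM and Sox11 at 0.389, 2.19, 4.50 and 1.03 FPKM.

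**Figure D5:**
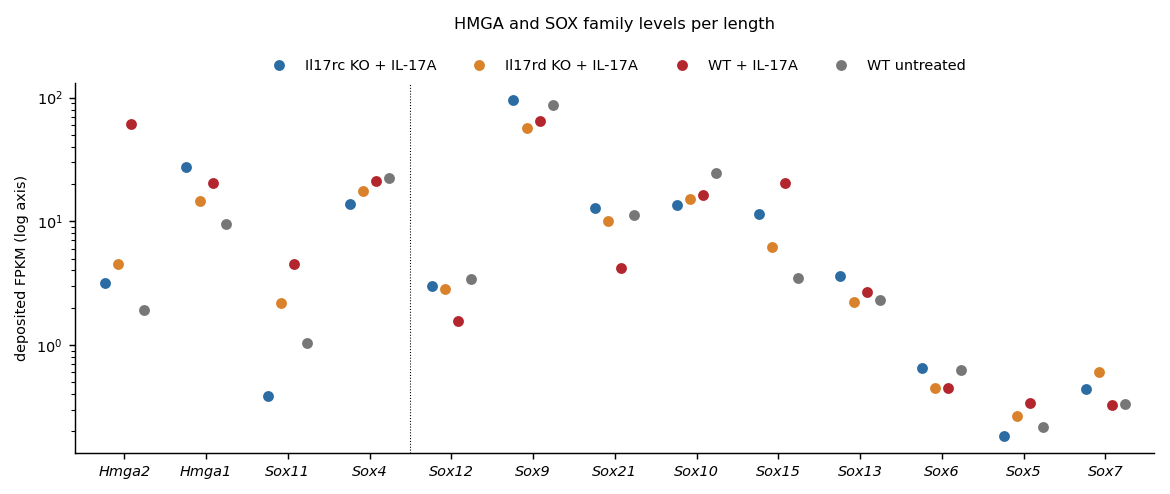
Deposited FPKM on a log axis for the members (left of the dotted line) and for the other SOX genes measured (right), 1 point per library. Hmga2 spans 1.93 to 61.6 FPKM and Sox11 0.389 to 4.50 FPKM, and Sox9 is the highest SOX gene in each library.

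Other HMG proteins were given by 20 genes that passed the filter on low values, of 26 listed. The median in IL-17A WT against untreated WT was 0.32, against 0.0041 over all genes. Of the 20, 5 were called higher and 0 lower, where 8.97% and 10.7% of all genes were. They were Hmgb2, Hmgb3, Hmgn2, Hmgn5 and Tcf7. Hmgb2, an abundant chromatin protein of dividing cells, was 3.06-fold higher (2.77 to 3.40) and had 2546 counts in Il17rc KO, 1373 in Il17rd KO, 1545 in IL-17A WT and 494 in untreated WT. This is the order of Hmga1, with Il17rc KO highest and untreated WT lowest. In Il17rc KO against IL-17A WT, 1 was called higher and 1 lower, and the median was 0.076. The higher one was Hmgb1, at 1795 against 272 counts. Hmgb1, Hmgb2, Hmgb3, Hmgn2 and Hmgn5 have near-identical pseudogenes, and their counts are uncertain. Counts of Uhrf1, Krt6b and Krt16 are uncertain too, since these genes have near-identical copies elsewhere in the genome. Igf2, Igf2bp3 and Twist2 instead share much of their sequence with a gene that overlaps them, so reads of each pair may be mixed. Igf2bp1 only overlaps a microRNA gene, which matches a small part of its transcript. In Il17rd KO 0 of the 20 HMG genes were called in either direction, with a median of 0.0060.

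The list of chromatin regulators of epidermal progenitors had 24 measured genes, with a median of 0.049 in IL-17A WT against untreated WT. Of the 24, 2 were called higher and 1 lower, where 8.97% and 10.7% of all genes were. The higher ones, Uhrf1 and Hells, act in the maintenance of DNA methylation, and the lower one was Ezh1. Against IL-17A WT, 0 were called in either direction in Il17rc KO or in Il17rd KO, with medians of 0.18 and 0.026. Ezh2, a Polycomb methyltransferase gene and a reported SOX4 target, had 1598 counts in Il17rc KO, 1094 in Il17rd KO, 1081 in IL-17A WT and 565 in untreated WT.

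Migration and mesenchymal transition, with which HMGA2 is linked in tumours, were given by 20 genes. Their median in IL-17A WT against untreated WT was 0.031. Of the 20, 4 were called higher and 3 lower, where 8.97% and 10.7% of all genes were. Among the higher ones were Fscn1, the gelatinase gene Mmp9 and Plaur, the urokinase receptor gene. The lower ones were Krt6b, Krt16 and Twist2, the last on few counts, 9 in IL-17A WT and 28 in untreated WT. Mmp9 had 57 counts in Il17rc KO, 119 in Il17rd KO, 1314 in IL-17A WT and 21 in untreated WT. Snai2, the transcription factor Slug, had 3524, 3332, 4129 and 2340 counts in the same order and was not among the called genes. In Il17rc KO against IL-17A WT 1 gene was called higher and 5 were called lower, and the median was -0.51. In Il17rd KO 3 were called higher and 4 were called lower, and the median was -0.21.

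Proliferation and other cell types moved with the groups, and their part in the results was not tested. The summed level of 30 cell cycle genes was 4832 CPM in Il17rc KO, 2875 in Il17rd KO, 2736 in IL-17A WT and 1078 in untreated WT. Of these genes the IL-17A WT library had 27 called higher and 0 lower than untreated WT, and 11 higher and 0 lower in Il17rc KO than in IL-17A WT. Il17rd KO against IL-17A WT had 1 called higher and 1 lower. The sum is highest and lowest in the same libraries as Hmga1, and it does not single out IL-17A WT as Hmga2 does. Between Il17rd KO and IL-17A WT the sum and Hmga1 differed in direction, since Hmga1 was lower in Il17rd KO. The sum of 20 spinous and granular differentiation genes was 4883 CPM in Il17rc KO, 4767 in Il17rd KO, 1961 in IL-17A WT and 10604 in untreated WT. This sum was lowest where Hmga2 and Sox11 were highest.

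The cultures held melanocyte transcripts. The 8 melanocyte markers, all measured, summed to 2088 CPM in Il17rc KO, 2260 in Il17rd KO, 1640 in IL-17A WT and 2489 in untreated WT, so they were lowest where Hmga2 and Sox11 were highest. Of 16 fibroblast markers 14 were measured, and against untreated WT the IL-17A WT library had 10 called lower and 1 higher. Over all genes 10.7% were called lower and 8.97% higher there. Against IL-17A WT, 7 were called higher and 1 lower in Il17rc KO, and 10 higher and 0 lower in Il17rd KO. Over all genes the shares were 6.22% and 4.84% in Il17rc KO and 6.27% and 3.73% in Il17rd KO. The 14 summed to 220, 303, 286 and 285 CPM in the order above, of which Sparc, a matrix protein gene, held 159, 219, 259 and 182 CPM. The other 13 summed to 61.4 CPM in Il17rc KO, 84.2 in Il17rd KO, 27.1 in IL-17A WT and 102 in untreated WT, lowest where Hmga2 was highest. Of 10 immune markers 4 were measured, with sums of 6.58, 23.0, 24.5 and 52.9 CPM in the order above, and of 8 endothelial markers 3, with sums of 9.23, 11.8, 18.3 and 15.4 CPM. Their defining genes Ptprc and Cdh5 were not among the 13102 deposited genes.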

How the data were processed

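RNA-seq of total RNA from 4 keratinocyte cultures was analysed, 1 library per group. The submitters' processing notes name Trim Galore 0.4.4, HISAT2, Subread with featureCounts, edgeR and the build mm10. The sources used here do not give settings, annotation or strand mode. The deposited counts are whole numbers of reads for each gene, without normalization, and each of the 13102 genes exceeds 1 CPM in at least 2 libraries. FPKM values as deposited were used to compare levels between genes.

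Library sizes were scaled with TMM (edgeR 4.0.16) over the 4 libraries. Ratios carry exact conditional binomial (Clopper-Pearson) 95% intervals and levels exact Poisson intervals. Both cover counting error only, because each group has 1 library. PCR duplicates are not marked by molecular identifiers, so the intervals may be too narrow even for counting error. Log2 ratios and profiles use a prior count of 2. The rule for calls was tried on simulated counts with counting error only, the model its intervals assume, so variation between cultures was not tested. With 1 library per group no p-value was computed. The members and gene lists were chosen with earlier results of these data known. Named are the members, the targeted genes, the 5 genes nearest each member in profile, and list genes called in the comparisons with IL-17A WT. Ddx3y, AI413582, Lin28b, the Igf2bp genes, Sox9, Sparc, Ezh2, Snai2 and Krt14 were named after their values were seen. Symbols were matched to GENCODE M21 and RefSeq tables of GRCm38. Near-identical copies, and the overlapping genes named with them, match the longest transcript at 95% identity over at least 50% of either sequence (BLAST+ 2.17.0). DESeq2 1.42.0 size factors, library totals and upper-quartile scaling were alternatives. A few results that need withheld items are not reported here.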

Additional observations from a re-analysis of the deposited data

Results flagged for a closer look

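For 14 of the genes named, the library ratios of the knockouts to IL-17A WT lay on opposite sides of 1, each with a counting interval that excludes 1. Only the genes named were searched, and the share of all genes split in this way was not counted. The number 14 therefore does not set the named genes apart from other genes. With 1 library per group the difference between the knockouts was not tested, and the causes were not tested. Hmga1 had a ratio of 1.34 in Il17rc KO and 0.724 in Il17rd KO. The genes nearest to Hmga1 in profile lay the same way, which the choice by profile fixes. Ratios in Il17rc KO and in Il17rd KO were 1.24 and 0.714 for Pole, 1.25 and 0.790 for Tubb3, and 1.42 and 0.846 for Dck. They were 1.46 and 0.799 for Rbmx2 and 1.37 and 0.829 for Kif24. Further genes higher in Il17rc KO and lower in Il17rd KO were Hmgb2, at 1.61 and 0.847, Hells, at 1.48 and 0.778, Uhrf1, at 1.23 and 0.740, and Sox9, at 1.49 and 0.882. In the other direction, Il17rc KO and Il17rd KO had ratios of 0.399 and 1.41 for the cell cycle inhibitor gene Cdkn2a, and 0.811 and 1.11 for Igf2bp1. Il17rc, deleted in the first of these libraries, had 0.372 and 1.42. The Y-linked Ddx3y, which follows the sex of the mice, had 3.14 (2.70 to 3.65) in Il17rc KO and 0.00818 (0.000985 to 0.0299) in Il17rd KO, where it had 2 counts. It was the widest split of the 14.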

How the results depend on the processing

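No paired analysis was possible because each group has 1 library and the labels give no replicate numbers. Of 72 member calls repeated under other scalings, 1 changed. Sox11 in Il17rd KO against IL-17A WT lost its call with library totals (0.515). No member ratio changed direction among the called ones. The deposited FPKM of the members equal the TMM-scaled counts over a fixed length, so their ratios are the same ones and give no further check. Sox4 in Il17rd KO against untreated WT was at 0.850 with library totals, outside its counting interval. Library totals shift the median of all genes there by 0.114 on the log2 scale and give 71.8% higher calls, against 61.55% with TMM. Other prior counts moved none of 48 log2 ratios beyond their counting intervals. A prior count of 10 kept 4 of the 5 nearest genes of Hmga2 and Sox4 and 5 of those of Hmga1 and Sox11.

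The number of genes called depends on the size and the filter, and scaling, the absence of a filter, or a rule on log2 ratios with a prior count, chosen after seeing the data, kept it within 1.5 times. Higher and lower calls in IL-17A WT against untreated WT were 2312 and 2441 at 1.5-fold, 451 and 683 at 3-fold, and 645 and 751 at a mean of at least 10 CPM. In Il17rc KO against IL-17A WT they were 1589 and 1265, 352 and 267, and 437 and 305 under the same settings. In Il17rd KO against IL-17A WT they were 1562 and 1075, 398 and 193, and 377 and 264. Il17rc KO against Il17rd KO gave 682 and 897, 71 and 125, and 84 and 111. Il17rc KO against untreated WT gave 2022 and 2079, 446 and 287, and 538 and 410. Il17rd KO against untreated WT gave 1485 and 1308, 281 and 120, and 344 and 178. Of 576 list counts under other scalings 15 moved by more than 1.5 times.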

Other observations

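Krt8, Krt18 and Nes, linked with simple epithelia or progenitors, were also high in IL-17A WT. They were picked with their values known. Sox12 was called lower there than in untreated WT, and the oncofetal Igf2bp genes were not called. Krt8 and Krt18, the paired keratins of simple epithelia, had 164 and 88 counts in Il17rc KO, 283 and 109 in Il17rd KO, 2146 and 947 in IL-17A WT, and 123 and 60 in untreated WT. Krt18 was 15.5-fold higher (11.9 to 20.4) in IL-17A WT than in the untreated WT library, 11.0-fold lower (8.86 to 13.9) in Il17rc KO and 9.12-fold lower (7.47 to 11.2) in Il17rd KO than in IL-17A WT. Nes, the intermediate filament gene nestin of progenitor cells, had 64, 116, 335 and 46 counts in the order of the libraries above. It was 7.13-fold higher (5.23 to 9.93) in IL-17A WT than in WT without it. These genes came from a list of Merkel, neural and Schwann cell markers, of which Atoh1, Isl1 and Dcx were not analysed here.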
